A study of Mus musculus with 18 samples.

Results

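The comparison concerned the second doubling of the dose in a 28 day oral study of the 4PAH-Mix, a mixture of 4 polycyclic aromatic hydrocarbons (benzo[a]pyrene, benz[a]anthracene, benzo[b]fluoranthene and chrysene). The members were chosen by their sample titles: 4 mice labelled D3, on a daily dose of 50 mg BaP equivalents per kg of body weight (the high dose, mice 16, 17, 18 and 20), and 5 mice labelled D2, on 25 mg (the medium dose, mice 11 to 15). These were 9 of the 18 mice of the series, and the vehicle mice (5, olive oil only) and low dose mice (4, on 12.5 mg) did not enter the comparison. All were male Muta™Mouse aged about 12 weeks, a transgenic mutation reporter strain kept on a mixed BALB/c and DBA/2 background, gavaged daily with the mixture in olive oil and killed 72 h after the last dose. RNA from each lung, labelled with Cy5, was hybridised beside a Cy3-labelled Universal Mouse Reference RNA made from 11 mouse cell lines, so each level below is a log2 ratio of lung over that reference, and each difference is the mean of the high dose minus the mean of the medium dose on the log2 scale. Each array came from a different mouse, and nothing in the sources used here said whether mice shared a litter.

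Polycyclic aromatic hydrocarbons bind the aryl hydrocarbon receptor (AHR), which moves to the nucleus, pairs with ARNT and switches on enzymes such as CYP1A1 and CYP1B1 together with its own repressor, AHRR. Those enzymes oxidise the hydrocarbons to epoxides and diol epoxides that bind DNA. Damaged DNA stabilises p53, which switches on genes for cell cycle arrest and cell death. In the lung these pathways run in a tissue of many cell types, and in bulk tissue fewer cells of a type and less RNA per cell cannot be told apart.

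No gene passed the test between the medium and the high dose. Of 55681 probes, 0 (0%) reached an adjusted p of 0.05 or lower in limma together with a fold change of 1.5 or more, and the lowest adjusted p was 0.787. An unadjusted p under 0.05 was found for 2151 probes (3.86%), 1040 with the high dose above and 1111 with it below. The median difference over all probes was -0.0019. The 95% confidence interval of the difference lay wholly within 1.5-fold either way for 54436 probes (97.8%), and for 26101 of the 27108 probes that were well above background in the lung channel on all 9 arrays (96.3%). These intervals hold probe by probe and not for all probes at once. In what follows, the groups are said to be apart where the lowest mouse of 1 dose lay above the highest mouse of the other. Over the 55617 probes measured on all 9 arrays, 390 were apart with the high dose above (0.701%) and 424 with the high dose below (0.762%). On the brightest probe of each of 20637 genes these shares were 0.707% and 0.819%.

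**Figure D1:**
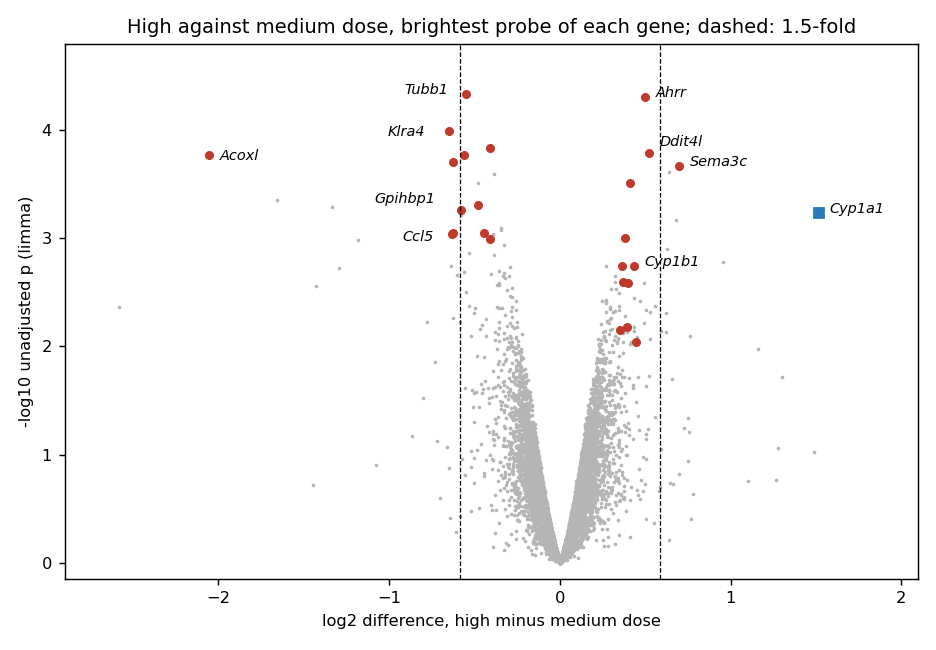
Log2 difference (high minus medium dose, x axis) against the negative log10 of the unadjusted limma p (y axis) for the brightest probe of each gene (grey); red circles are the probes of the 24 genes chosen by size among those whose groups were apart, the blue square is Cyp1a1, and the dashed lines mark 1.5-fold. Acoxl stands at -2.05 and Cyp1a1 at 1.52, and none of the points passed the test after adjustment.

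Array quality overlapped between the doses. Median lung channel intensities ran from 114.5 to 132 in medium and from 121 to 142 in high dose mice. The share of probes well above background ran from 52.4% to 56.4% in medium and from 55.1% to 59.2% in high dose mice. Both ranges reached higher at the high dose. Log ratios of any pair of the 9 mice correlated at 0.949 to 0.974 over all probes. Each of 3 slides held both doses, but the medium dose always lay in array column 3 and the high dose in array column 4, so array position and dose cannot be told apart. Slide 1 held medium dose mice 11 and 12 and high dose mice 16 and 17. Slide 2 held medium dose mice 13 and 14 and high dose mouse 18, and slide 3 held mice 15 and 20. Differences within slides, given below in slide order, thus rest on few mice, on slide 3 on 1 mouse of each dose. The lung label was borne out by its defining markers, whose levels over the reference were 6.94 and 7.12 (medium and high dose) for Sftpc, the surfactant protein of alveolar type 2 cells, 5.55 and 5.47 for Ager of alveolar type 1 cells and 7.42 and 7.62 for Scgb1a1 of club cells.

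The best known AHR targets stood among the largest differences upward. Ahrr and Cyp1b1 were apart, with every high dose mouse above every medium dose mouse, and Cyp1a1 differed by more, on a probe that was near background in most medium dose mice. The stretches upstream of these genes are shown because they carry the core of the AHR binding motif, GCGTG (or CACGC on the other strand), which is printed in capitals. They are the 250 bases before the RefSeq start (GRCm38.p6), in the direction of the gene: Cyp1a1 at chr9:57697363-57697612 on the plus strand, Cyp1b1 at chr17:79715062-79715311 on the minus strand and Ahrr at chr13:74292332-74292581 on the minus strand.
Cyp1a1: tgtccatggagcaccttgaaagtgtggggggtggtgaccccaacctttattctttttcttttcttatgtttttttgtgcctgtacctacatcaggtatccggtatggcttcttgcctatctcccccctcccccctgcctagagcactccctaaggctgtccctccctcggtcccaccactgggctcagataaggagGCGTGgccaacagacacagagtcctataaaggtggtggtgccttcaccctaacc
Cyp1b1: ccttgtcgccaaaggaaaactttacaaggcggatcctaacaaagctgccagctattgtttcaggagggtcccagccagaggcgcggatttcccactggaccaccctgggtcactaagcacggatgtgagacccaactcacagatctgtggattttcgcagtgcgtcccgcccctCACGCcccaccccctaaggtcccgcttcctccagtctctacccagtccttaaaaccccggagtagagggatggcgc
Ahrr: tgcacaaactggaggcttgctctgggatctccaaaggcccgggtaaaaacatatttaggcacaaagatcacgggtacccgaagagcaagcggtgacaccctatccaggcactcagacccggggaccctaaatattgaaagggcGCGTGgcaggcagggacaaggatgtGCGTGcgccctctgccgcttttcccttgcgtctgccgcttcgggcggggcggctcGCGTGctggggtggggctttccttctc
Cyp1a1 and Cyp1b1 held 1 match each and Ahrr held 3. Of the 8 AHR targets listed, 7 had a promoter in the table and 4 held the motif, Tiparp being the other with 1 match, against 28.2% of 32851 promoter windows of the same length (both strands searched, overlapping matches counted). A match is a description of the letters, not evidence of binding.

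Ahrr, the repressor that closes the AHR feedback loop, was measured at 0.22, 0.43, 0.29, 0.44 and 0.12 in the medium dose mice and at 0.89, 0.82, 0.72 and 0.77 in the high dose mice. The groups were well separated, and the difference was 0.50 (95% interval 0.31 to 0.68; 1.41-fold). The group means of Ahrr over the whole series were -0.65 in vehicle, then 0.03, 0.30 and 0.80 with rising dose. A second Ahrr probe was not well above background on any of the 9 arrays. Cyp1b1, which activates polycyclic hydrocarbons in lung, was measured at -0.71, -0.72, -0.69, -0.32 and -0.32 in the medium and at -0.11, 0.10, -0.24 and -0.22 in the high dose mice. The lowest high dose mouse lay just above the upper pair of medium dose mice, and the difference was 0.43 (0.19 to 0.67; 1.35-fold). Within the slides the Cyp1b1 difference was 0.71, 0.26 and 0.10.

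Cyp1a1, the classic AHR-induced monooxygenase, was dim in the lung channel: it was well above background on 2 of 5 medium and on all 4 high dose arrays. Its levels were 0.07, 1.02, 0.46, 0.74 and 0.51 at the medium dose and 2.02, 3.13, 2.40 and 0.76 at the high dose. Mice 16, 17 and 18 lay far above all medium dose mice, and mouse 20 lay among them. The difference was 1.52 (0.78 to 2.25; adjusted p = 0.944 in limma), and leaving out 1 mouse at a time moved it between 1.16 and 1.96, the higher value being without mouse 20. The ratios of the scanner software gave 3.36, so the size of the Cyp1a1 difference is uncertain. The low (0.68) and medium (0.56) dose means were below the vehicle mean (1.00), where the levels of the 5 mice spread widely, so Cyp1a1 did not follow the dose in order as Ahrr and Cyp1b1 did. Among the remaining members, Tiparp, an ADP-ribosyltransferase that represses AHR, differed by 0.09, Ugt1a6a by 0.11 and Aldh3a1 by 0.02. Nqo1, a quinone reductase, differed the other way, by -0.26, with mouse 20 at -2.15 and the other 8 mice between -1.37 and -0.85. Cyp1a2 was not well above background on any of the 9 arrays. In all, 6 of 8 AHR targets were higher and 2 lower, with a median of 0.10 against 0.0048 over all genes, 0 were called, and 2 were apart with the high dose above (against 0.707% of all genes). The receptor itself differed little, with Ahr at a difference of -0.0037 (-0.22 to 0.22) and Arnt at 0.05 (-0.13 to 0.23), and the median of the 5 members of its complex was -0.06.

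**Figure D2:**
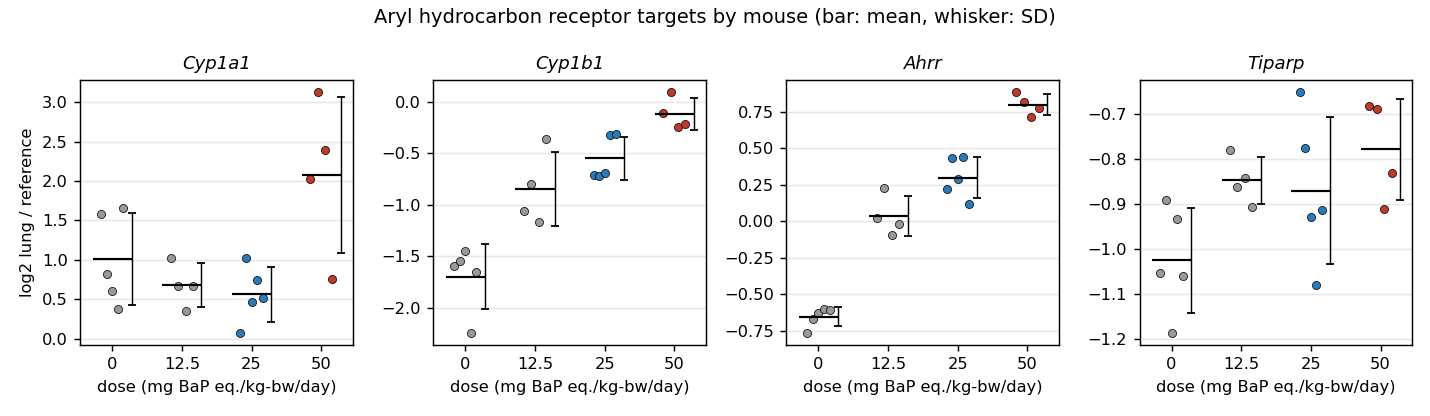
Log2 lung over reference level (y axis) of Cyp1a1, Cyp1b1, Ahrr and Tiparp in each mouse by dose (x axis, mg BaP equivalents/kg-bw/day); blue is the medium dose, red the high dose, grey the vehicle and low dose mice, bars are means and whiskers SD. The Ahrr and Cyp1b1 mice of the 2 doses do not overlap, while 1 high dose mouse lies within the medium dose range of Cyp1a1.

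The p53 targets leaned upward together by small amounts. Of 24 measured members, 18 had differences above 0 and 6 below, 0 were called, 2 were apart with the high dose above (against 0.707% of all genes) and 0 below (against 0.819%), and the median difference was 0.10. The mean level over the 24 genes was 0.31 to 0.48 in the medium dose mice and 0.49 to 0.63 in the high dose mice, with the lowest high dose mouse at 0.491 and the highest medium dose mouse at 0.481. Cdkn1a, the p21 inhibitor of cell cycle kinases, was 1.27, 1.48, 1.03, 1.55 and 1.5 in medium and 1.78, 1.52, 1.94 and 1.75 in high dose mice. Mouse 17 overlapped the medium dose, and the difference was 0.38 (0.13 to 0.63). Ccng1, encoding cyclin G1, differed by 0.38 (0.07 to 0.68), Zmat3, an RNA-binding zinc finger protein, by 0.33 (0.10 to 0.57), Polk, a translesion polymerase that bypasses benzo[a]pyrene adducts, by 0.30 (0.04 to 0.55), Phlda3, an inhibitor of AKT, by 0.27 (0.05 to 0.48) and Plk2 by 0.26 (0.06 to 0.46). The members that were apart both serve cell death: Tnfrsf10b, the TRAIL receptor, ran from -0.81 to -0.57 in medium and from -0.52 to -0.29 in high dose mice (difference 0.30), and Bbc3, encoding PUMA, from 0.11 to 0.25 and from 0.30 to 0.50 (0.23). Mdm2, the ubiquitin ligase that turns over p53, differed by 0.11 (-0.07 to 0.28). Gdf15, a secreted stress cytokine, differed by 0.10 (-0.27 to 0.46), with medium dose mouse 15 at 0.08 and all other mice between 0.78 and 1.13. Pmaip1 (-0.16), Ddb2 (-0.14), Sesn1 (-0.13) and Xpc (-0.09) had differences below 0.

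Of the neighbouring pathways, mitosis genes had the median farthest below 0, and the others had medians nearer 0. The 15 DNA repair genes had 7 higher and 8 lower and a median of -0.0036, with the repair factors Xpa at -0.06 and Ercc1 at -0.20. Of 11 apoptosis genes 7 were higher, with the caspase Casp8 at -0.06 and the BH3-only gene Bid at -0.27. Of 16 mitosis genes 15 were lower, with a median of -0.13, Mki67 at -0.17 and Top2a at -0.13, but all 16 intervals lay within 1.5-fold and Cdk1 and Aurkb were not well above background on any of the 9 arrays. The mean level of the mitosis list was -2.73 in medium dose mouse 13. It was -3.16 to -3.08 in the other medium dose mice and -3.28 to -3.10 in the high dose mice, so the lean rested largely on mouse 13. The 18 DNA replication genes had 13 higher and a median of 0.05, with Mcm2 at 0.12 and Mcm3 at 0.0028. In none of these 4 lists were the groups apart for any member, and 0 members were called.

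Genes that had responded at the low dose were then followed. In the other 9 mice, 40 probes were called between the low dose and the vehicle, 30 of them higher (0.0539% of probes) and 10 lower (0.018%), and these mice share no animal with the comparison of the high and medium dose. Of the 30 probes that rose at the low dose, 29 were higher at the high than at the medium dose, whereas 49.1% of all probes were. They represent 22 named genes and 4 probes without a name, so some probes share a gene, and 7 of the genes are on the p53 list. Their median difference was 0.20, the range was -0.04 to 0.50, 0 were called between the high and the medium dose, and 2 were apart with the high dose above (against 0.701% of all probes). For comparison, the same 30 probes had a median of 0.89 between the low dose and the vehicle, the contrast that chose them. The mean level of the 30 probes was 1.33, 1.5, 1.25, 1.40 and 1.23 in the medium dose mice and 1.71, 1.42, 1.51 and 1.55 in the high dose mice, and mouse 17 overlapped the medium dose. Group means of this level were 0.0053 ± 0.06 in vehicle (SD, n = 5), 1.02 ± 0.08 in low dose (n = 4), 1.34 ± 0.11 in medium dose (n = 5) and 1.55 ± 0.12 in high dose mice (n = 4). Within the slides the high dose was above the medium dose by 0.15, 0.18 and 0.32.

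Among the probes with the largest rise at the low dose, Ces2e, a carboxylesterase, had risen by 2.06 and differed between the high and medium dose by 0.37 (0.07 to 0.66). Gdf15 had risen by 2.05, and its later difference is given above. The brighter Cdkn1a probe had risen by 1.39 and the dimmer by 1.84, and they differed by 0.38 and 0.33 between the upper doses. Dbp, a clock output factor, had risen by 1.81 and differed by 0.04 (-0.32 to 0.41). For Dbp and Gdf15 the sign of the later difference depended on single mice. Ephx1, the microsomal epoxide hydrolase that takes part in making diol epoxides, had risen by 1.09 on 1 probe and 0.88 on another, which differed by 0.10 and 0.29 between the upper doses. Mmrn2, an endothelial matrix protein, had the highest level of the set, at 6.22 to 7.06 in the medium and 6.38 to 7.60 in the high dose mice, and differed by 0.39 (-0.09 to 0.86), or by 0.22 without mouse 16 and 0.63 without mouse 17.

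The 10 probes that fell at the low dose had moved little further: 8 were lower and 2 higher at the high than at the medium dose, with a median of -0.03. Car14, a membrane carbonic anhydrase, had fallen by 1.19 at the low dose and differed by -0.10 (-0.33 to 0.12) between the upper doses. Gpr141b differed by -0.05, Nfil3, a clock repressor, by -0.0084 and Tmem171 by -0.01. Mfap2, encoding a protein of elastic microfibrils, was the exception, at 1.24, 1.70, 1.55, 1.58 and 1.24 in the medium and 0.93, 1.21, 1.09 and 1.15 in the high dose mice, with the groups apart and a difference of -0.37 (-0.60 to -0.14).

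**Figure D3:**
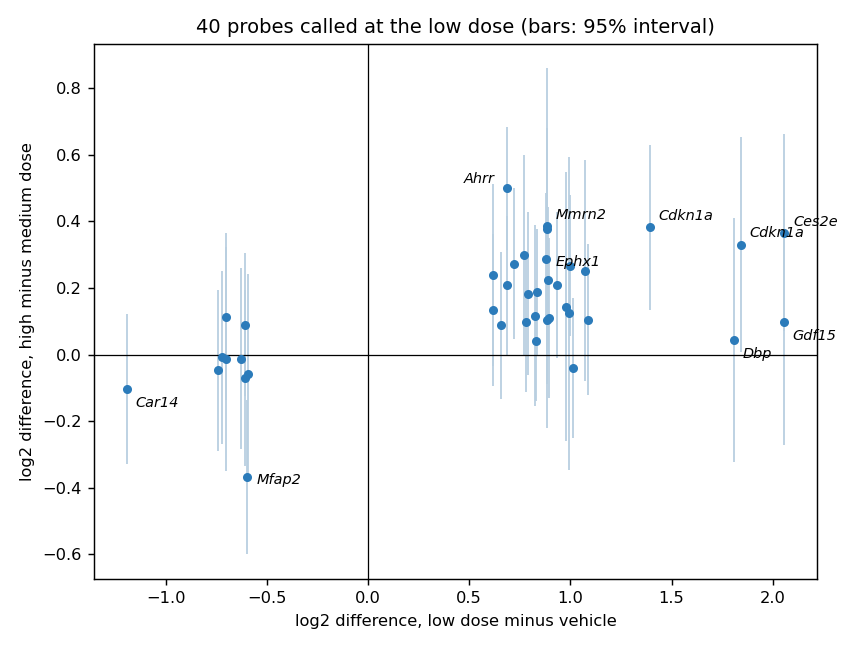
High minus medium difference with its 95% interval (y axis) against the low dose minus vehicle difference (x axis), both log2, for the 40 probes called at the low dose; the 2 differences use different mice. Of 30 probes to the right of 0, 29 lie above the horizontal line, and the 10 to the left lie near it except Mfap2 at -0.37.

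Genes of the circadian clock, several of which were among the low dose responders, did not share a direction. Per2 differed by 0.40 (0.17 to 0.63) and Per1 by -0.37 (-0.58 to -0.15), both being repressors of the clock. Per2 was 1.38 to 1.89 in medium and 1.79 to 2.15 in high dose mice, and Per1 was 1.04 to 1.29 and 0.63 to 1.1, so each overlapped. Of the 14 repressors and output factors 9 were higher, with a median of 0.06. Of the 5 activators 2 were higher, with Arntl at -0.23 and Clock at -0.11. None of the 19 clock genes were apart.

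Metabolic and stress genes mostly lay near 0. Of 16 phase I genes 11 were higher, with a median of 0.07, Cyp2f2 at 0.22 and Cyp2b10 at 0.04. Of 14 phase II genes measured 10 were lower, with a median of -0.07 and Gsta2 at 0.05. NRF2 targets split 6 and 6, with Hmox1 at -0.11. The integrated stress response had 8 of 10 lower, with Ddit3 at -0.13 and Asns at -0.18. Its mean level was -1.71 in medium dose mouse 15, -2.08 to -2.02 in the other medium dose mice and -2.15 to -2.03 in the high dose mice. Of 8 heat shock genes 7 were lower, and their median of -0.28 was the lowest of the 39 lists, but the mice overlapped for all of them, with Hspa1a at -0.29 (-0.60 to 0.02) and Hspb1 at -0.28 (-0.79 to 0.22), and only 2 of the 8 intervals lay within 1.5-fold. The mean heat shock level was 0.95 in medium dose mouse 15. It was -0.22 to 0.36 in the other medium dose mice and -0.24 to 0.35 in the high dose mice, so the lean rested largely on mouse 15. Immediate early genes had 7 of 12 higher, with Fos at 0.25 and Fosb at -0.02. Glucocorticoid targets had 5 of 9 higher, with Fkbp5 at 0.04 and Tsc22d3 at -0.04. Among 15 PPAR targets 9 were higher, with Pdk4 at 0.27, while Angptl4, an inhibitor of lipoprotein lipase, was 0.77, 0.23, 0.25, 0.61 and -0.15 in medium and -0.44, -0.39, -0.23 and 0.03 in high dose mice (-0.60; -0.94 to -0.26). Of 18 cholesterol synthesis genes 10 were lower, with Hmgcs1 at 0.0027. In that list Stard4, a sterol carrier, was apart with the high dose above (0.19) and Lss, encoding lanosterol synthase, apart with it below (-0.16).

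Apart from these lists, the 12 largest differences upward among bright named probes whose groups were apart were Sema3c (0.70), Ddit4l (0.52), Ahrr (0.50), Usp13 (0.44), Cyp1b1 (0.43), Atrn (0.41), Usp2 (0.40), Fam102b (0.39), Lrrc75b (0.38), Slc25a33 (0.37), Ebf4 (0.36) and Tcim (0.35). Since non-overlap chose them, each has the smallest exact permutation p that 4 against 5 mice allow (two-sided, 0.0159), which is no test. Sema3c, a secreted guidance cue that also acts on lung vessels and airways, was 1.72, 2.13, 2.17, 1.88 and 2.44 in medium and 2.60, 2.58, 2.81 and 3.08 in high dose mice. The difference of 0.70 (0.40 to 1.00; 1.62-fold) was 0.67, 0.78 and 0.64 within the slides, and a second Sema3c probe differed by 0.68 with overlapping mice. Its vehicle, low and medium dose means were 2.02, 2.34 and 2.07. Ddit4l, an inhibitor of mTORC1 signalling, was 1.38, 1.21, 0.91, 1.17 and 1.22 in medium and 1.89, 1.59, 1.57 and 1.77 in high dose mice. Its difference was 0.52 (0.30 to 0.74), and its means ran 0.57, 0.96, 1.18 and 1.70 from vehicle to the high dose. Usp2 and Usp13 are deubiquitinases, Slc25a33 carries pyrimidine nucleotides into mitochondria and Ebf4 is a transcription factor. Second probes of Usp13 (0.15), Atrn (0.17), Slc25a33 (0.07) and Tcim (0.16) were well above background on all 9 arrays and gave smaller differences with overlapping mice.

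The 12 largest differences downward by the same rule were Acoxl (-2.05), Klra4 (-0.65), Ccl5 (-0.63), Cd300e (-0.62), Klra16 (-0.62), Gpihbp1 (-0.58), Clec4g (-0.56), Tubb1 (-0.55), H1f4 (-0.48), Gata1 (-0.45), Dusp2 (-0.41) and H2-DMa (-0.41). Several of them are made by lymphocytes, by myeloid cells or by the platelet lineage. Tubb1, the beta tubulin of platelets, was 1.59, 1.88, 1.53, 1.61 and 1.52 in medium and 1.02, 0.98, 1.03 and 1.27 in high dose mice, a difference of -0.55 (-0.75 to -0.35). Gata1, the transcription factor of the erythroid and megakaryocyte lineages, was 1.18 to 1.52 and 0.59 to 0.99 (-0.45). The 5 erythroid genes measured did not go with it, with 3 higher, a median of 0.05, Hba-a1 at 0.12 and Hbb-bs at 0.11. Gpihbp1, which anchors lipoprotein lipase on capillary endothelium, was 5.55 to 5.99 in medium and 4.81 to 5.44 in high dose mice (-0.58), and its means ran 6.39, 6.14, 5.81 and 5.23 from vehicle to the high dose. Clec4g, a lectin of endothelial cells, was 1.19 to 1.57 and 0.47 to 1.00 (-0.56). Cd300e, an activating receptor of myeloid cells, was 1.54 to 2.11 and 0.85 to 1.48 (-0.62), and its medium dose mean of 1.86 was the highest of the 4 groups, the vehicle and high dose means being 1.26 and 1.23.

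Cytotoxic lymphocyte genes lay lower at the high dose, in part. Of 15 markers of natural killer cells and cytotoxic T cells, 12 were lower and 3 higher, with a median of -0.17, 0 called, 2 apart with the high dose below (against 0.819% of all genes) and 1 above. Only 9 of the 15 were well above background on all 9 arrays, and values of dim probes are limited by signal over background. Klra4, a Ly49 receptor of natural killer cells, was -1.32, -1.36, -1.90, -1.76 and -1.36 in medium and -2.20, -2.29, -2.13 and -2.12 in high dose mice. The high dose mice were tightly grouped below all others, and the difference was -0.65 (-0.91 to -0.39; 1.57-fold lower). Prf1, encoding perforin, was 0.55, 0.46, 0.40, 0.37 and 0.31 in medium and 0.10, 0.05, 0.09 and 0.25 in high dose mice (-0.30; -0.47 to -0.13). Gzma, encoding granzyme A, had the largest difference of the list, -1.30 (-2.02 to -0.57), at 4.76, 4.17, 2.98, 3.07 and 4.12 in the medium and 3.08, 1.70, 2.70 and 2.62 in the high dose mice, with mouse 16 overlapping. Nkg7 differed by -0.35, Klra8 by -0.38 and Gzmb by -0.18. Gzmk, a granzyme of memory T cells, was apart the other way (0.21). The lineage markers Ncr1 (-0.09), Klrd1 (0.01), Eomes (-0.06) and Tbx21 (0.08) lay near 0, each with overlapping mice. The mean level of the list was 0.52 to 0.84 in medium and 0.32 to 0.59 in high dose mice, and its part in the Gzma or Ccl5 values was not tested.

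Klra genes form a family of related genes, so a probe may read more than 1 of them, and their values are uncertain as to which gene they stand for. Of 19 Klra probes, naming 11 genes, 4 were apart with the high dose below (against 0.762% of all probes) and 0 above (against 0.701%), but 4 were well above background on all 9 arrays, and of these Klra4 (-0.65) and Klra16 (-0.62) were apart while Klra9 (-0.06) and Klra1 (0.03) were not. Another Klra16 probe, well above background on all medium and 3 of 4 high dose arrays, differed by -0.22 with overlapping mice. A further Klra16 probe, not well above background on any of the 9 arrays, differed by 0.06. A probe for the transcript NM_053152 is not among those 19, since its accession had no match in the RefSeq table. The study's lists call it Klra22, a name that the RefSeq table gives as a synonym of Klra1 under another accession. It was chosen after its values were seen: it was -0.47, -0.35, -1.11, -0.66 and -0.38 in medium and -1.29, -1.67, -1.40 and -1.26 in high dose mice, with a difference of -0.81 and its groups apart. A second probe for this transcript differed by -0.28 (-0.52 to -0.05) with overlapping mice. That second probe was well above background on 3 of 5 medium and 0 of 4 high dose arrays.

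T cell, B cell and interferon-stimulated genes were also mostly lower, while chemokines were evenly split. Ccl5, a chemokine of T and natural killer cells, was -1.22, -1.31, -1.47, -1.57 and -1.14 in medium and -2.10, -2.45, -1.63 and -1.71 in high dose mice, with a difference of -0.63 (-0.95 to -0.31), but its within-slide differences were -1.01, -0.11 and -0.57. Ccl4 differed by -0.53 (-0.82 to -0.25). The 24 chemokines split 12 and 12 with a median of 0.04, Cxcl1 was at 0.11 and Cxcl2 was not well above background on any of the 9 arrays. T cell genes had 11 of 12 lower (median -0.12, Cd3e -0.12, Cd3d -0.29, Lck -0.38), B cell genes 10 of 11 lower (median -0.11, Cd79a -0.09, Cd79b -0.16) and plasma cell genes 2 of 4 (Jchain -0.03, Mzb1 -0.08). No T cell or B cell gene was apart. The mean level of the T cell list was -0.49 to -0.01 in medium and -0.41 to -0.20 in high dose mice. That of the B cell list was 1.32 to 1.88 and 1.46 to 1.76, so in both lists the high dose mice lay within the medium dose range. Interferon-stimulated genes had 14 of 16 lower with a median of -0.21, among them Ifit1 (-0.20), Ifit2 (-0.11), Ifi44 (-0.35) and Irf7 (-0.24), and the mice overlapped for all 16. Dusp2, a phosphatase that switches off MAP kinases in activated leukocytes, was -0.08 to 0.11 in medium and -0.46 to -0.28 in high dose mice (-0.41). Its vehicle and low dose means, -0.33 and -0.26, lay near that of the high dose (-0.38) and below that of the medium dose (0.03).

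Of 9 MHC class II genes, which present antigen to helper T cells, 8 were lower with a median of -0.11, and 3 were apart with the high dose below (against 0.819% of all genes) and 0 above. H2-DMa was 1.80, 1.74, 1.84, 2.11 and 1.96 in medium and 1.70, 1.38, 1.5 and 1.36 in high dose mice (-0.41; -0.62 to -0.20). H2-DMb1 pairs with it to load peptides and was 3.69 to 3.95 and 3.53 to 3.67 (-0.23). H2-Aa, an antigen-presenting chain, was 6.13 to 6.39 and 5.8 to 6.11 (-0.28). Its partner chain H2-Ab1 (-0.01), H2-Eb1 (-0.06), the invariant chain Cd74 (-0.08) and the regulator Ciita (0.02) lay near 0. The vehicle and low dose means of H2-DMa, 1.5 and 1.38, lay near that of the high dose (1.48) and below that of the medium dose (1.89).

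**Figure D4:**
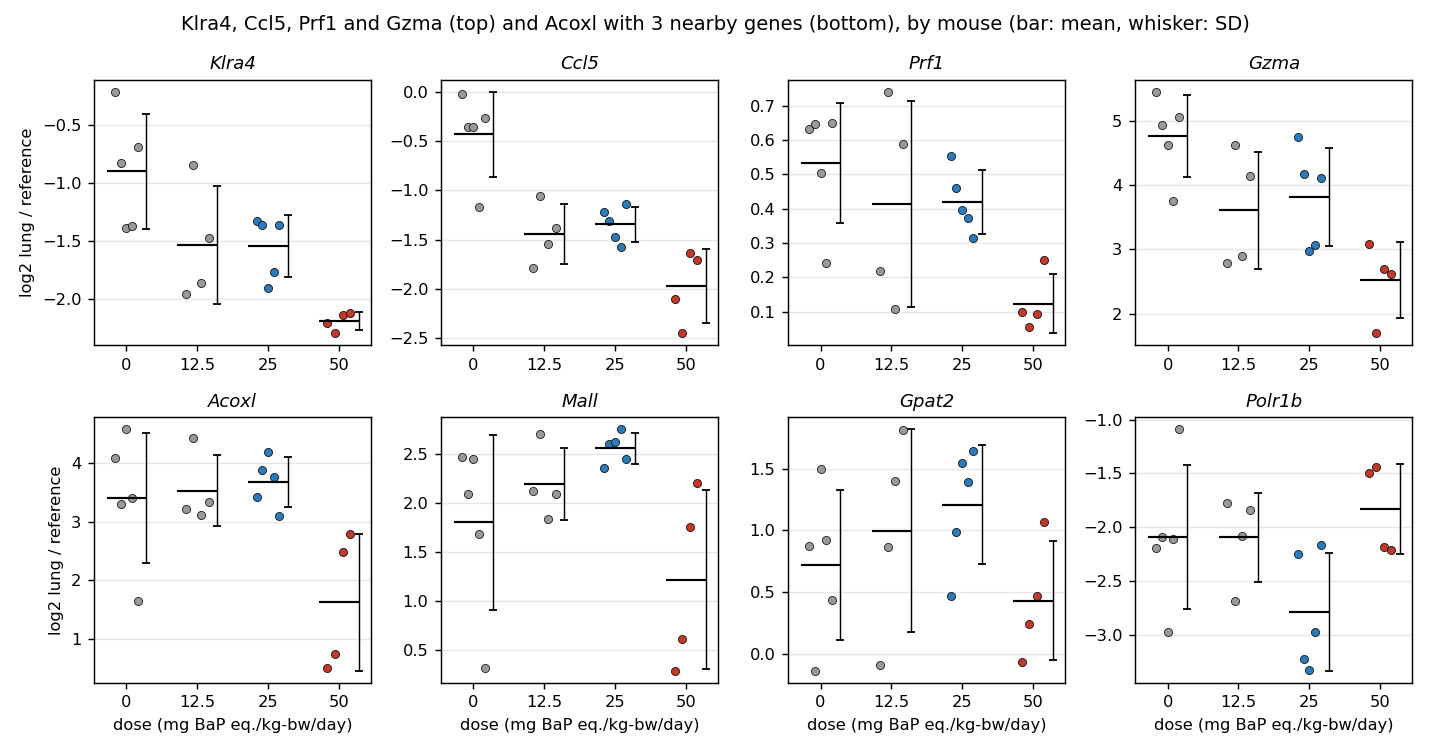
Log2 lung over reference level (y axis) in each mouse by dose (x axis, mg BaP equivalents/kg-bw/day) for Klra4, Ccl5, Prf1 and Gzma (top) and Acoxl, Mall, Gpat2 and Polr1b (bottom); blue is the medium dose, red the high dose, grey the vehicle and low dose mice, bars are means and whiskers SD. The Klra4 and Prf1 mice do not overlap between the upper doses, and the high dose mice of Acoxl and Mall fall into a low and a higher pair.

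Structural and epithelial cell types showed no list with its groups apart. The first members differed little: Sftpc 0.18 and Sftpb 0.15 in alveolar type 2 cells, Ager -0.07 and Hopx 0.01 in type 1 cells, Foxj1 0.07 and Dnah5 0.09 in ciliated cells, Pecam1 0.05 and Cdh5 0.13 in endothelium, Acta2 -0.14 and Tagln -0.16 in smooth muscle, Col1a1 0.22 and Col1a2 0.0067 in fibroblasts, Marco 0.16 and Chil3 0.36 in alveolar macrophages, and S100a8 0.10 and S100a9 0.05 in neutrophils. Of 12 fibroblast and matrix genes 11 were higher, with a median of 0.08. Sox17, an endothelial transcription factor, differed by 0.49 (0.20 to 0.78) with overlapping mice. Markers of tissue that can be taken along with the lung varied from mouse to mouse in both groups. The 8 adipocyte genes were all higher, with the largest median of the 39 lists (0.60), and their mean level ran from 0.73 to 2.14 in medium and from 1.05 to 3.26 in high dose mice, highest in mouse 20 and then in mouse 15. Cfd, an adipocyte protease, spanned 0.93 to 5.68 and 2.49 to 7.09 (1.27; -0.62 to 3.15), Adipoq differed by 0.75 (-0.20 to 1.70) and Retn by 0.70 (-0.29 to 1.69). Ucp1 of brown fat was not well above background on any medium dose array and was on 2 of 4 high dose arrays. Lep was not well above background on any of the 9. The 5 airway secretory genes measured were also all higher (median 0.32), but Bpifa1 spanned 0.69 to 6.19 in medium and 1.1 to 6.31 in high dose mice, and Scgb3a1 differed by 0.41 (-1.15 to 1.97). Of 10 cardiomyocyte genes of the pulmonary veins 7 were lower, with Myh6 at -0.33 (-2.61 to 1.95) and Myl7 at -0.61 (-2.58 to 1.36). Skeletal muscle Acta1 differed by 0.23, and Myh1 was not well above background on any of the 9 arrays. Alb (-0.03) and Krt13 (-0.08) of tissues outside the lung lay near 0.

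**Figure D5:**
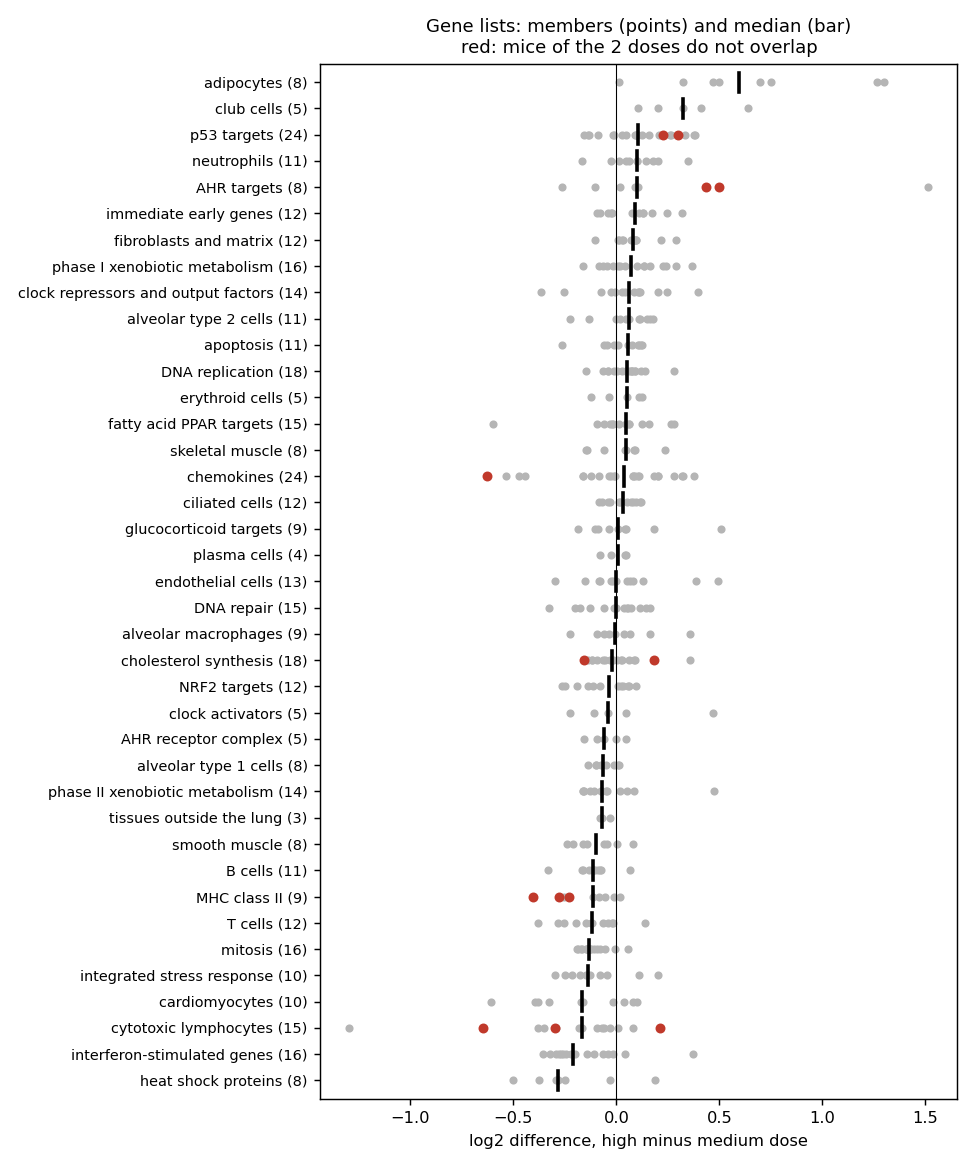
Log2 difference, high minus medium dose (x axis), of each measured member (points) of the 39 gene lists (y axis, number measured in brackets), with the median as a black bar; members whose mice do not overlap are red. Adipocyte genes have the highest median (0.60) with none apart, heat shock genes the lowest (-0.28), and the red points lie in 6 lists.

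Over all 39 lists, 443 of 451 genes were measured, and 6 (1.35%) were apart with the high dose above and 7 (1.58%) below, against 0.707% and 0.819% of all genes. The lists were chosen with results of these data known, so nothing is read from that ratio.

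Some of the largest differences belonged to genes whose levels fell into separate classes of mice. Acoxl, encoding an acyl-CoA oxidase-like protein, was 3.43, 3.89, 4.20, 3.77 and 3.10 in medium and 0.49, 0.74, 2.48 and 2.79 in high dose mice. The groups were apart, but 2 high dose mice lay far below the other 2, and vehicle mouse 5 was also low at 1.65. The difference was -2.05 (-2.92 to -1.19) and was -3.04, -1.51 and -0.32 within the slides. The brighter second probe of Acoxl differed by -1.43 and overlapped. Mall, which lies 3 measured genes away on chromosome 2 in the RefSeq order (GRCm38.p6), had the same mice low, at 2.36, 2.60, 2.62, 2.75 and 2.44 in medium and 0.29, 0.61, 1.75 and 2.21 in high dose mice (-1.34), and it was well above background on 2 of 4 high dose arrays. Gpat2, 10 genes away, differed by -0.78 and Polr1b, 11 genes away on the other side, by 0.95. The genes directly beside Acoxl differed little, Bub1 at -0.14 and Bcl2l11 at -0.17. The genes of this paragraph other than Acoxl were chosen after their values were seen. Vps16, also on chromosome 2, had the largest difference of any bright gene, -2.58 (-4.21 to -0.96), with mice 16 and 17 at -4.54 and -4.58 and the other 7 mice between -0.88 and 0.51. Itpa (-1.18) and Ap5s1 (1.16), on the same chromosome, also set mice 16 and 17 at or near an end of the range. Of 44 genes bright on all 9 arrays with a difference of 1.5-fold or more on their brightest probe, 9 (20.5%) were on chromosome 2, which holds 7.85% of the 13751 bright genes. Chromosome 2 was chosen after these values were seen, so nothing is read from that share. On chromosome 14, Gm5801 was between 1.27 and 1.34 in mice 11 to 14 and between -1.04 and -0.55 in medium dose mouse 15 and all high dose mice (-1.65).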

How the data were processed

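The members and the gene lists were chosen with earlier results of these data known. Lung RNA (Cy5) and reference RNA (Cy3) were hybridised to Agilent mouse arrays, 1 array per mouse with no dye swap. Per the file headers, intensity values were extracted with Feature Extraction 11.0.1.1 from a probe design built on mm9 (the methods name an older version), and deposited flags mark outliers, saturation and signals well above background. The authors' deposited table holds log2 ratios of lung over reference after LOWESS, and the deposited scanner files also hold log10 ratios made by the scanner software. The authors' table correlated with the ratios used here at 0.996 to 0.998 per array, with column medians of -0.03 to -0.02, and was used as an alternative.

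Median intensities without background subtraction were loess-normalized within each array, outlier and control spots were left out, and spots of 1 probe were averaged. The doses were compared with limma (version 3.58.1, R 4.3.3) on the 9 mice (7 residual degrees of freedom, 6.85 from the prior), and Benjamini-Hochberg adjustment ran over 55681 probes. A call needed an adjusted p of at most 0.05 and a 1.5-fold difference or more, the study's limits; limma took the place of its permutation-based Fs statistic. A two-sided exact permutation test (scipy 1.17.1) was run for named genes. 64 probes lacked a value on some of the 9 arrays. On data simulated from the means and spread of these 9 arrays (55617 probes, 200 changed), 88% of probes changed by 0.75 on the log2 scale were recovered. The share was 99% for those changed by 1.5, and 2.6% of calls were false. The simulated noise was normal and independent between probes, and 200 planted changes ease the adjusted threshold. These shares therefore do not give the power of the comparison made here. The number of arrays limits the precision, and the median standard error was 0.09.

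Probes were named through the unversioned transcript accession in RefSeq (GRCm38.p6): 27229 probes for 20656 genes. A gene in a list was read from its brightest probe. Named genes were any called genes, the 12 largest differences in each direction among probes well above background in Cy5 on all 9 arrays with groups apart, the first 2 members of each list and any apart, and the 5 largest rises and falls at the low dose; a few are not reported here. Gsta1, Hspa1b, Mx1, Mx2, Cd68, Rtkn2, Scgb3a2 and Ahsp had no matching probe. Alternatives were other background corrections, scalings and ratios, the slide as a block, a filter on dim probes, a fit with all 4 groups, no fold limit and leaving out each mouse.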

Additional observations from a re-analysis of the deposited data

Results flagged for a closer look

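Dixon's test for a lone outlying mouse was applied to 88 sets of values (44 genes or list levels, at the medium and the high dose) and marked 3 of them, where chance marks about 1 in 20. Usp13 was -0.40 in medium dose mouse 11, with the other 4 between 0.24 and 0.47. Tubb1 was 1.88 in medium dose mouse 12, with the others between 1.52 and 1.61. Gata1 was 0.59 in high dose mouse 17, with the others between 0.98 and 0.99. Without mouse 11 the Usp13 difference was 0.29 in place of 0.44.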

How the results depend on the processing

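The count of 0 called probes was kept by every alternative run with all 9 mice except the ratios of the scanner software, which called 1 probe, a lincRNA probe that was not well above background. Leaving out 1 mouse at a time called between 0 and 2 probes: 1 without medium dose mouse 13 (NM_053152, -0.94) and 2 without medium dose mouse 15 (C1qtnf12, -0.63, and Gm5801, -2.09). At an unadjusted p under 0.05 there were 592 probes with median centring, 1062 of 28890 probes after the filter on dim probes, and 2084 to 2579 with the other alternatives that kept all mice. Probes with the groups apart numbered 147 higher and 208 lower with median centring in place of loess, and 174 and 227 among probes well above background in a group; the filter tests fewer probes. Leaving out 1 mouse gave 703 to 1005 higher and 693 to 1073 lower, since smaller groups are apart more often. The 30 probes that rose at the low dose were higher at the high dose in 27 to 30 cases under the alternatives, with a median of 0.15 to 0.25. The 8 of 10 that were lower among the low dose fallers became 5 with the ratios of the scanner software, 4 with the Cy5 channel alone and 4 to 8 when 1 mouse was left out. The named genes kept their sign in 400 of 400 values with all mice and in 356 of 360 without 1 mouse, the exceptions being Dbp (-0.10, -0.03 and -0.03 without mice 11, 17 and 20) and Gdf15 (-0.09 without mouse 15). Much of this count was fixed beforehand. Where the groups were apart, as in the genes chosen by size, leaving out 1 mouse cannot change the sign. The filter on dim probes and the fit with all 4 groups also leave a difference as it is. Sizes moved by more than the spread between mice with the ratios of the scanner software for Cyp1a1 (3.36), Ahrr (0.77), Ddit4l (0.83), Usp13 (0.99), Ebf4 (0.61), Klra4 (-1.18), Clec4g (-1.75), Mall (-2.62) and Polr1b (2.43), and with the Cy5 channel alone for Usp13 (0.08), Ddit4l (0.35) and Clec4g (-0.31). Aquantile normalization leaves log ratios as they are and so changed nothing by construction. No paired analysis was possible because mouse numbers are not shared between the doses, but each slide held both doses, and the fit with the slide as a block called 0 probes (2424 at an unadjusted p under 0.05). Values of dim probes, Cyp1a1 at the medium dose among them, are limited by signal over background.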
